A study of Mus musculus with 47 samples.

Results

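The regions described here are the autosomal peaks of H3K4me1, the monomethyl mark on lysine 4 of histone H3, in livers of male mice with and without Ezh1 and Ezh2. All 68838 autosomal peaks of the control list and all 67161 of the DKO (double knockout, E1/E2-KO) list were taken, 135999 of the 498557 peaks and regions in the 12 lists of the series. A control peak that shared no base with a DKO peak was called lost, a DKO peak that shared no base with a control peak was called gained, and a peak with at least 1 bp in common was called kept. Control mice were 7 week old males with floxed Ezh2 alleles (Ezh2 f/f) and no Cre transgene in their labels. DKO mice were males of the same age with the genotype Ezh1-/-, EZH2f/f, AC+, in which AC is the Alb-Cre transgene. Alb-Cre is active in hepatocytes, so that Ezh1 was missing from all cells of these livers, and Ezh2 from hepatocytes, whereas the other cells of the liver kept Ezh2. Chromatin of 4 individual livers per group was precipitated with the same antibody to H3K4me1, and the reads of the 4 livers were pooled before peaks were called. Each group is therefore represented by 1 list without a replicate, a score or a read count, and no difference between the groups was tested. Percentages carry Wilson 95% intervals where these are printed, and the intervals hold counting error alone and are too narrow where neighbouring peaks change together. In whole liver, fewer cells with a mark and less of the mark in each cell cannot be told apart.

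H3K4me1 marks enhancers, the distal elements that switch on genes of a cell type, and the flanks of promoters. An enhancer that carries H3K4me1 without H3K27ac, the acetyl mark of active enhancers and promoters, is called primed, and H3K4me1 together with the repressive mark H3K27me3 is known from poised enhancers of developmental genes. Ezh1 and Ezh2 are the alternative catalytic subunits of Polycomb repressive complex 2 (PRC2), which places H3K27me3 on genes that are silent in hepatocytes. The comparison asks where the H3K4me1 landscape of male liver differed once this activity was removed from hepatocytes.

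Sequences of 8 changed peaks are shown first, because gained and lost peaks differed in base composition. The genes were picked with their values known, as clear cases of each direction. Each sequence is the central 200 bp of the widest gained or lost peak at its gene for which this stretch holds no annotated exon, on the plus strand of the mm9 genome (NCBIM37), with CpG dinucleotides, the bases at which mammalian DNA is methylated, in capitals. The 4 gained peaks are those at Gsx2 (chr5:75480925-75481124, between genes, 9.54 kb downstream of the start of Gsx2), Lbx1 (chr19:45317207-45317406, between genes, 7 kb upstream of the start), Emx2 (chr19:59532558-59532757, 0.52 kb upstream of the start) and Prex1 (chr2:166448047-166448246, in an intron, 91.19 kb from the start). Gsx2, Lbx1 and Emx2 encode homeodomain transcription factors of the developing nervous system, and Prex1 encodes an exchange factor that activates the GTPase Rac.
Gsx2: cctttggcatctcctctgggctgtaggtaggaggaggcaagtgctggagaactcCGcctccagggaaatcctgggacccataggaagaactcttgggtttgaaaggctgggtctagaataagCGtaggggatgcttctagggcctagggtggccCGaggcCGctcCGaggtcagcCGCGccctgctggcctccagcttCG
Lbx1: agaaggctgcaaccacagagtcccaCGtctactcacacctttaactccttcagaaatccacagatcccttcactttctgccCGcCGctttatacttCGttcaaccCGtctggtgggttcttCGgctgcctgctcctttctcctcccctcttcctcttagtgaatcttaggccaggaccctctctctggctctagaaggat
Emx2: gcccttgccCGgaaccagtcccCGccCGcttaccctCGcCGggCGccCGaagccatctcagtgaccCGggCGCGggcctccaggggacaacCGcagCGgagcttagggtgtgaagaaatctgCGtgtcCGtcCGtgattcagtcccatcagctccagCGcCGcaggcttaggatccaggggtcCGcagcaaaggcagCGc
Prex1: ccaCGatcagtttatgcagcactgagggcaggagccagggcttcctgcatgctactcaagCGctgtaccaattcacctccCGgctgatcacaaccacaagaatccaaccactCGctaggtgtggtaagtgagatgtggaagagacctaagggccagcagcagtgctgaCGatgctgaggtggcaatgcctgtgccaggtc

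The 4 lost peaks are those at Slc10a1 (chr12:82065425-82065624, in an intron, 3.45 kb from the start), Scd1 (chr19:44464066-44464265, between genes, 18.03 kb from the start and beyond the 3' end), Kynu (chr2:43401777-43401976, between genes, 8.97 kb upstream of the start) and Nrp1 (chr8:130906617-130906816, in an intron, 23.74 kb from the start). Slc10a1 encodes the main bile acid uptake transporter of hepatocytes, Scd1 a fatty acid desaturase, Kynu an enzyme of tryptophan breakdown, and Nrp1 a co-receptor for vascular endothelial growth factors and semaphorins.
Slc10a1: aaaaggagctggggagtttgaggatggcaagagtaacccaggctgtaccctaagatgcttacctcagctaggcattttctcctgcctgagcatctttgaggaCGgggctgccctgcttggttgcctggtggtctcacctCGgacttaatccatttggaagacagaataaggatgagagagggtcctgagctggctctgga
Scd1: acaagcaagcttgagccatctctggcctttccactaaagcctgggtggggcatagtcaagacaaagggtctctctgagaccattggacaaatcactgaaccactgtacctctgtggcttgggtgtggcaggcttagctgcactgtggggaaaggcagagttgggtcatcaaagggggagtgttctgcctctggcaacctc
Kynu: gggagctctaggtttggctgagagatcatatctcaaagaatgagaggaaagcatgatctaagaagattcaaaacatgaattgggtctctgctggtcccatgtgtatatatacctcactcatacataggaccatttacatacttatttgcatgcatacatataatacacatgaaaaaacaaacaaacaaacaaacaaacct
Nrp1: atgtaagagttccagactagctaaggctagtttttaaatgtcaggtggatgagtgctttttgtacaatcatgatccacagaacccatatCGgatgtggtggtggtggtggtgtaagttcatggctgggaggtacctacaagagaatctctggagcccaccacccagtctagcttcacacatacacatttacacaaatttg

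The windows of the 4 gained peaks held 8, 6, 19 and 5 CpG, in the order shown, and those of the lost peaks held 2, 0, 0 and 1. All 4 gained peaks lay in H3K27me3 regions of both groups, and none of the 4 lost peaks lay in an H3K27me3 region of control liver. The lost peak at Scd1 lay in a region of the DKO list. In female liver, the lost peaks at Kynu and Nrp1 overlapped an H3K4me1 peak of the control list alone. That at Slc10a1 overlapped a peak of the DKO list alone, and that at Scd1 overlapped none. Over all changed peaks the contrast in CpG content and H3K27me3 had the same direction and was weaker, as described below. Control H3K27me3 regions held 43.4% of gained and 20.7% of lost peaks, and the median CpG count of the central 200 bp was 3 and 2.

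The deleted genes were examined first. Within 10 kb of Ezh2, 2 of 4 control peaks were lost and none was gained. The wider lost peak (chr6:47482753-47484192, 1440 bp) covered exons 16 and 17 of the 20 exons of the longest coding transcript, in the part of the gene that encodes the catalytic SET domain. An H3K27ac peak lay at this position in control male but not in DKO male liver, and an H3K4me1 peak was called there in control female but not in DKO female liver. The study describes transcripts of the SET domain exons as missing from these livers. Whether the DNA under this peak was itself removed in hepatocytes was not tested, and a change of the mark and an absence of the DNA cannot be told apart. Both peaks near the start of Ezh2 were kept. At Ezh1, 3 of 4 control peaks were lost, 2 of them within 1 kb of its start, and 1 peak was gained upstream of the gene, 5106 bp from the nearest start.

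The lists also matched their labels in other respects. Peaks on the Y chromosome numbered 29 in control male and 23 in DKO male liver, and there was none in either female list. Among 44 genes of hepatocyte secretion and metabolism, 42 had a control peak within 10 kb, whereas 11 of 24 macrophage and leukocyte genes and 75.6% of all genes did. Among the latter, Ptprc, Emr1, Clec4f and Lyz2 had no peak in either list, and Cd68, Sfpi1, Irf8 and Runx1 had 4, 4, 4 and 13 control peaks. Alb, the albumin gene, had 4 control peaks, of which 3 were kept.

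The lists differed by similar numbers of lost and gained peaks. An overlap of pooled lists says where a peak was called in 1 group alone, and not that the mark changed there beyond the spread between livers, which was not tested. Of the control peaks, 21616 were lost (31.4%, interval 31.1% to 31.7%), and of the DKO peaks, 19669 were gained (29.3%, interval 28.9% to 29.6%). The remaining 47222 control peaks were kept, and 94.9% of these overlapped exactly 1 DKO peak. Lost peaks covered 7.56 Mb and gained peaks 7.38 Mb, against 28.3 Mb for the kept control peaks. In bases, 59.2% of the sequence under control peaks lay under DKO peaks. Shares were alike on all autosomes, with 29.1% to 33.7% of control peaks lost and 26.1% to 30.7% of DKO peaks gained.

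Changed peaks were narrow. The median width was 303 bp for lost and 318 bp for gained peaks, compared to 530 bp and 508 bp for kept peaks of the control and DKO lists. Among control peaks below 250 bp, 60.8% were lost, a share that declined with width to 2.93% at 1000 to 1499 bp and to 7 of 667 peaks at 1500 bp or more. Gained peaks declined likewise, from 56.5% below 250 bp to 4.06% at 1000 to 1499 bp. Up to 500 bp lost shares were above gained shares, and from 500 bp the order was the opposite. Kept peaks that paired with exactly 1 peak in each direction (40679 pairs) had a median width ratio, DKO over control, of 0.982, and 16.4% were at least 1.5-fold wider and 18.1% at least 1.5-fold narrower in DKO liver.

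**Figure D1:**
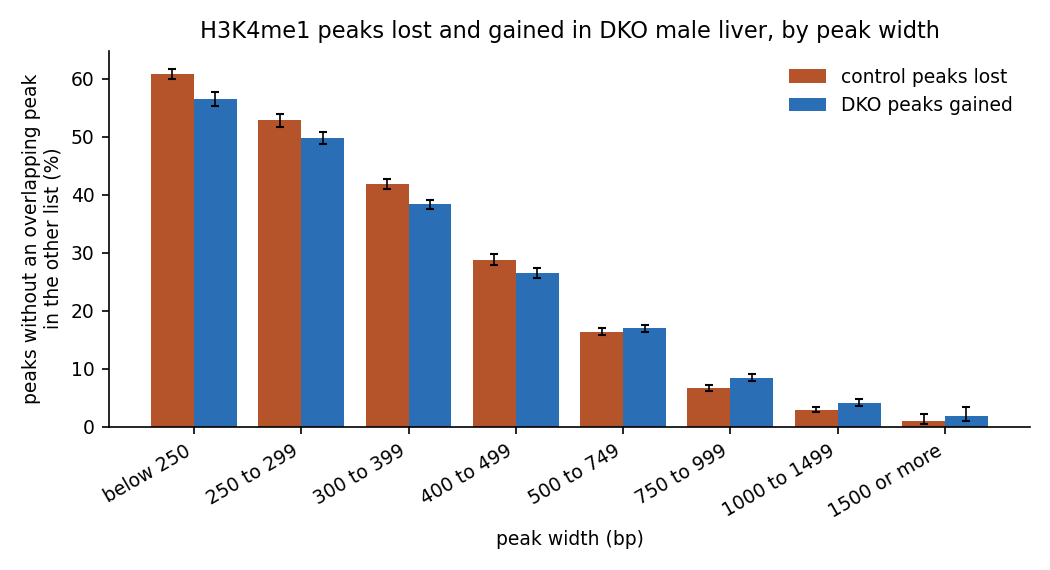
Percent of control male peaks lost (orange) and of DKO male peaks gained (blue), on the vertical axis, in bins of peak width in bp, on the horizontal axis. Lines are Wilson 95% intervals; the shares fall from 60.8% and 56.5% below 250 bp to 1.05% and 1.79% at 1500 bp or more.

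The kept peaks overlapped to different degrees. Of the kept control peaks, 450 (0.953%) had at most 10% of their length covered by DKO peaks, 14.1% had 10% to 50%, 47% had 50% to 90% and 37.9% had over 90% covered. With at least 50% of the length as the rule for kept, 41.7% of control peaks were lost and 39.4% of DKO peaks gained. Of the lost peaks, 3.9% had a DKO peak within 100 bp, 21.5% within 500 bp and 33.5% within 1 kb, compared to 3.99%, 18.6% and 27.3% of gained peaks with a control peak at these distances. The median distance to the nearest peak of the other list was 2773 bp for lost and 5012 bp for gained peaks.

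The widest changed peaks differed in kind between the directions. Of the 12 widest gained peaks, 11 lay in control H3K27me3 regions, and 7 of the 12 were within 1 kb of a transcription start. They included peaks of 1996 bp at Grhl2, an epithelial transcription factor, 1933 bp at Adra2a, an adrenergic receptor, 1920 bp at Loxl2, an enzyme that cross-links collagen, 1763 bp at Grem1, an antagonist of bone morphogenetic proteins, and 1436 bp at Mmp9, a matrix metalloproteinase. None of these 12 peaks overlapped an H3K27ac peak in either group. Of the 12 widest lost peaks, 1 lay in a control H3K27me3 region, that at Bhlhe22 (1500 bp). The widest, 1746 bp, lay at a start within Galnt11, and others lay at Myo1e (1530 bp) and near Fads1, a fatty acid desaturase (1584 bp).

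Changed peaks lay further from promoters than kept peaks did. The midpoint was within 1 kb of a transcription start for 14% of lost peaks (interval 13.6% to 14.5%) and 12.2% of gained peaks (11.7% to 12.7%), compared to 20.3% of kept control peaks and 2.36% of 300 bp windows of the autosomes. Introns held 48.9% of lost, 46.4% of gained and 40.9% of kept control peaks. Exons held 4.54% of gained and 2.78% of lost peaks, and the space between genes held 36.9% and 34.3%. The median distance to a start was 14.3 kb for lost, 16.7 kb for gained and 13.5 kb for kept control peaks. Both kinds of changed peak were thus mostly distal, as enhancer peaks are.

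**Figure D2:**
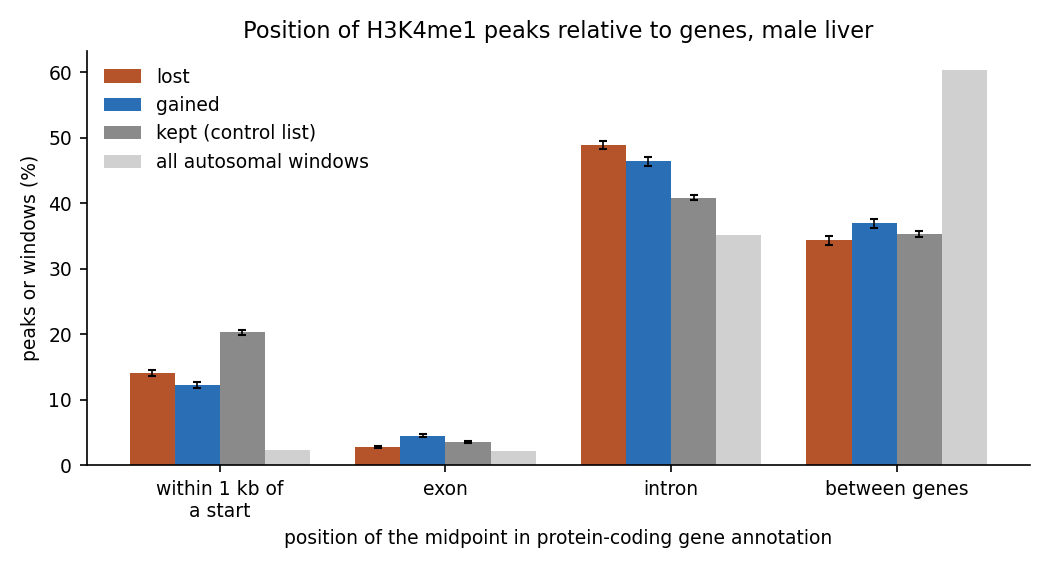
Percent of lost, gained and kept H3K4me1 peaks and of all autosomal 300 bp windows (vertical axis) by the position of the midpoint relative to protein-coding genes (horizontal axis), with Wilson 95% intervals for peaks. Lost and gained peaks have lower shares at transcription starts (14% and 12.2%) than kept peaks (20.3%) and higher shares in introns.

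H3K27me3 separated the directions of change. Of gained peaks, 43.4% (42.7% to 44.1%) overlapped an H3K27me3 region of control male liver, compared to 20.7% (20.2% to 21.3%) of lost peaks and 31.4% of kept control peaks. Regions of both groups held 6987 gained and 3202 lost peaks, 2.18 gained for each lost, whereas sequence outside the regions of both lists held 9028 gained and 14056 lost peaks, 0.642 gained for each lost. Regions found in DKO liver alone resembled the outside, with 2099 gained and 3082 lost peaks. Regions found in control liver alone, where the mark was no longer called after loss of Ezh1 and Ezh2, held 1555 gained and 1276 lost peaks, a lower ratio (1.22) than regions called in both groups. H3K27me3 regions were extensive in both lists: they covered 765.3 Mb in control and 749.7 Mb in DKO male liver, and the lists do not say how strong the mark was inside a region.

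Counted per Mb of sequence, regions of both groups had 24.8 control and 31.3 DKO peaks, a ratio of 1.26, and sequence outside both had 27.6 and 24.3, a ratio of 0.879. H3K4me1 peaks were densest in regions called in DKO liver alone, with 55.6 control and 50.2 DKO peaks per Mb. Lost and gained peaks were both densest there as well, although gained peaks were nearly as dense in regions of both groups.

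**Figure D3:**
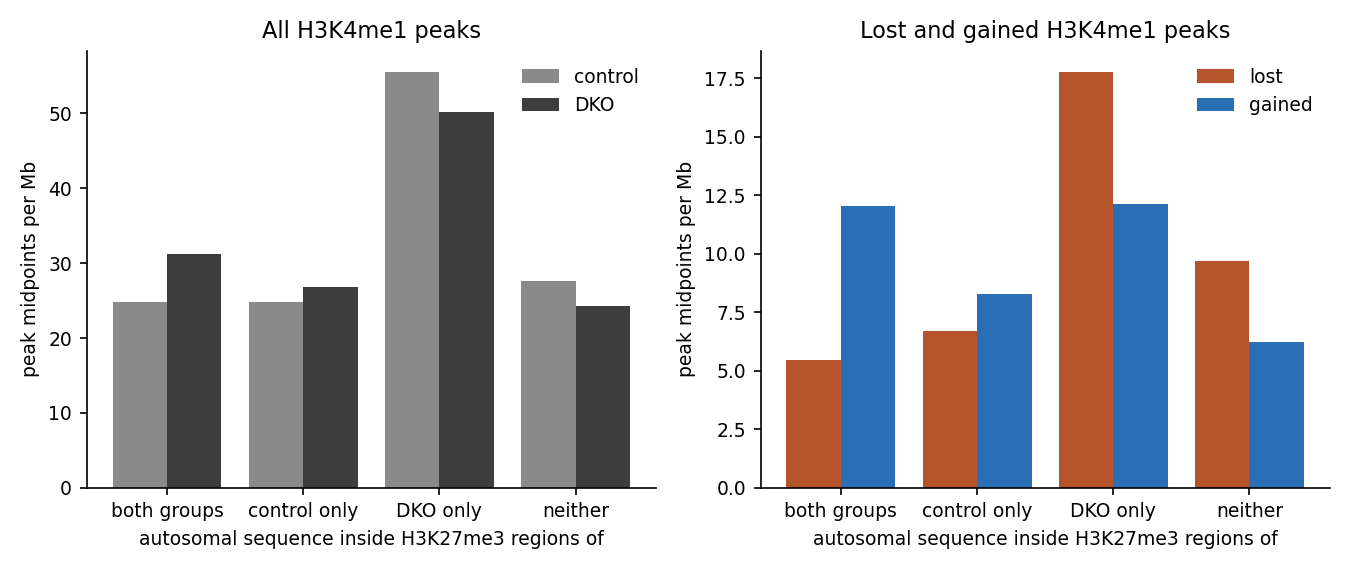
H3K4me1 peak midpoints per Mb of autosomal sequence (vertical axes) in sequence inside H3K27me3 regions of both male groups, of control or DKO liver alone, or of neither (horizontal axes). The left panel shows all peaks of each list and the right panel lost and gained peaks; gained exceed lost peaks per Mb in regions of both groups (6941 against 3151 midpoints), and lost exceed gained peaks outside (14131 against 9077).

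The excess of gained peaks in control H3K27me3 regions was present in every class of position and width examined. Gained peaks made up 64.4% of changed peaks at transcription starts, 76.5% in exons, 65.2% in introns and 65.3% between genes when they lay inside control regions, and 29.4%, 49%, 41.8% and 37.5% when they lay outside. In peaks of 500 bp or more, gained peaks made up 77.7% of changed peaks inside and 35.2% outside control regions. Inside these regions 18.5% of DKO peaks of this width were gained and 6.85% of control peaks were lost, and outside them 8.37% were gained and 12.9% were lost.

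H3K27ac was present at a minority of changed peaks. Of kept control peaks, 33% overlapped a control H3K27ac peak and 57.6% a DKO H3K27ac peak, compared to 17.1% and 31.6% of lost peaks and 7.22% and 20.5% of gained peaks. Neither H3K27ac list had a peak at 66.1% of lost and 78.4% of gained peaks, which is the pattern of H3K4me1 without acetylation. Of lost peaks, 507 (2.35%) had H3K27ac in control liver alone and 3631 (16.8%) in DKO liver alone. Read the other way, H3K4me1 was lost at 34% of control peaks with H3K27ac in control liver alone at 18% of those with it in both groups, at 22.3% of those with it in DKO liver alone and at 42.9% of those without it. At gained peaks H3K27ac was called in DKO liver alone for 2822 (14.3%) and in control liver alone for 219 (1.11%). The H3K27ac lists are of unequal length, with 28862 peaks in control and 55055 in DKO male liver, which favours DKO alone in such counts. With the 28862 widest peaks of each list, DKO liver alone had H3K27ac at 7.1% of lost, 5.3% of gained and 12.3% of kept control peaks, and control liver alone at 5.19%, 2.5% and 6.47%.

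Acetylation was rarest at gained peaks inside H3K27me3. Of the 8542 gained peaks in control H3K27me3 regions, 2.65% overlapped H3K27ac in control and 14.2% in DKO liver, compared to 10.7% and 25.3% of gained peaks outside, and to 21.3% and 50.9% of kept control peaks inside these regions.

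**Figure D4:**
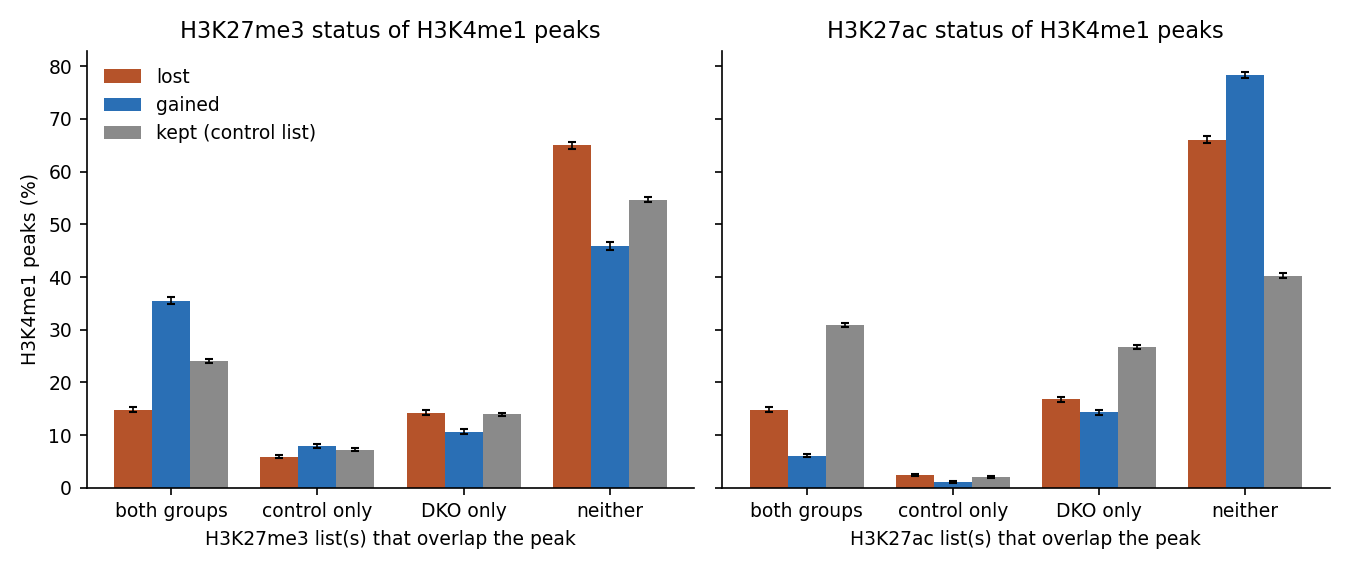
Percent of lost, gained and kept H3K4me1 peaks (vertical axis) that overlap H3K27me3 regions (left) or H3K27ac peaks (right) of both male groups, of control or DKO liver alone, or of neither (horizontal axes), with Wilson 95% intervals. Gained peaks lie in H3K27me3 regions of both groups more often than lost peaks do (35.5% against 14.8%) and are more often without H3K27ac (78.4% against 66.1%).

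Base composition followed the same division. In the central 300 bp, the median GC content was 46% for lost, 49.7% for gained, 48.3% for kept control peaks and 41.7% for all autosomal windows. Windows of over 50% GC made up 46.8% of gained (46.1% to 47.5%) and 25.3% of lost peaks (24.7% to 25.9%). At least 6 CpG were present in 34.6% of gained and 21.5% of lost peaks. Within control H3K27me3 regions these shares were 51.5% and 37.1%, and outside them 21.5% and 17.4%, so that gained peaks were richer in CpG on both sides.

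Matches to 14 words bound by transcription factors were searched on both strands of the central 300 bp. The forkhead word TGTTTAC of FOXA factors was present in 5.35% of lost, 5.04% of gained and 5.35% of kept control peaks and in 4.48% of autosomal windows. CAAAGTCCA, a word of HNF4 and related nuclear receptors, was present in 0.888% of lost, 1.18% of gained and 1.12% of kept control peaks and 0.39% of windows. TTCNNNGAA, the site of STAT5, the mediator of growth hormone, was present in 9.96%, 8.65% and 9% of these peaks and in 11% of windows. The E-box CAGCTG was present in 15.3% of lost, 20.01% of gained and 18.3% of kept control peaks and in 10.9% of windows, and it is a GC-rich word. The palindrome TTGCGCAA of CEBP factors was rare, in 0.0648% of lost, 0.153% of gained and 0.0741% of kept control peaks and 0.0246% of windows. Its looser form TTGCNNAA, which takes in the palindrome, went the other way, in 14.7%, 12.8% and 13.9% of these peaks and 13.7% of windows. The ETS word ACCGGAAG was present in 0.287%, 0.58% and 0.451% of lost, gained and kept control peaks and 0.243% of windows, and the GC box GGGGCGGGG of SP1 and KLF factors in 1.33%, 2.04% and 2.33% and 0.534%. Both of these words hold a CpG, as do TTGCGCAA and ATCGAT, and the last of these had similar shares in lost and gained peaks. The other 6 words had shares in lost and gained peaks of 0.509% and 0.646% for a word of HNF1, 1.05% and 1.03% for ATCGAT (HNF6), 9.43% and 9.15% for TGANTCA (AP-1), 2.27% and 2.32% for GAGGAAGT (PU.1), 4.4% and 4.34% for AGATAAG (a word of GATA factors), and 0.0833% and 0.102% for a word of MEF2. Their shares of windows were 0.332%, 1.24%, 8.87%, 1.81%, 4.4% and 0.0825%, in the same order. These matches describe sequence and not binding.

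Many changed positions were not peaks in female liver. Of lost peaks, 30.7% overlapped an H3K4me1 peak of control female and 22.1% of DKO female liver, and for gained peaks the order was the opposite, with 23% in control female and 28% in DKO female liver. Kept control peaks overlapped these lists at 75.4% and 68.2%. Narrow peaks overlapped them less. Below 300 bp the shares were 47.2% and 42.6% of kept control, 20.9% and 15.5% of lost, and 17.2% and 17.7% of gained peaks. The opposite order of lost and gained peaks was clearest at wide peaks. Of lost peaks of 500 bp or more, 54.4% were present in control female and 38.3% in DKO female liver, and of gained peaks of this width 36% and 53.4%. Neither female list had a peak at 59.4% of lost and 60.1% of gained positions. The DKO female H3K4me1 list came from 3 livers and the control female list from 4. They held 50922 and 54181 autosomal peaks, fewer than the male lists with 67161 in DKO and 68838 in control liver. Absence from a female list is therefore not evidence of a difference between the sexes. Female peaks were called lost at 36.9% and gained at 31.7%, and 17.7% of male lost peaks overlapped a female lost peak and 16.6% of male gained peaks a female gained peak. As shares of the female changed peaks, these overlaps came to 19.1% and 20.4%. Kept male peaks give the background. A peak in control female liver alone was overlapped by 18.4% of lost and by 16.8% of kept control peaks, which is similar. A peak in DKO female liver alone was overlapped by 16.8% of gained and by 9.66% of kept DKO peaks. Female gained peaks were inside H3K27me3 regions of control female liver more often (34.4%) than female lost peaks (21.2%).

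Lost peaks occurred in longer runs than gained peaks. With peaks of the same kind joined across gaps as wide as is customary for stitching enhancers into super-enhancers (between 10 and 15 kb), 50.6% of lost and 38.7% of gained peaks had at least 1 neighbour, and across gaps of up to 5 kb 30.9% and 19.1% did. Runs of at least 4 peaks numbered 506 for lost peaks and 191 for gained peaks. The longest runs of lost peaks, of 11 peaks each, lay in Nfib, a transcription factor gene (chr4:82080716-82142725, with 3 kept peaks), and over Gm17350 and the start of Nrp1 (chr8:130857185-130887770, with 1 kept peak). Further runs were 10 lost peaks at Slc25a30, a mitochondrial carrier, and 8 each at Pde4d, Gbe1 and Fkbp5, of which Gbe1 is the glycogen branching enzyme and Fkbp5 a glucocorticoid-induced chaperone. None of these runs had H3K27me3 in either list. By comparison, runs of gained peaks included 7 over Hoxb7, Hoxb8 and Hoxb9 (chr11:96101458-96146091, 1 kept peak), 7 at Pax6 and 6 at Gsx2, and these 3 runs lay 100% inside H3K27me3 of both groups. Gained runs of 8 peaks at Dnmt3a and Pcx had little or no H3K27me3 in control liver, so that not all runs followed this mark.

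Peaks were then assigned to genes within 10 kb of the gene span. Of 21326 autosomal protein-coding genes, 5184 had more gained than lost peaks (24.3%) and 6121 more lost than gained peaks (28.7%). The 21326 genes include 4553 without a peak in either list, so that both shares would be higher among genes with a peak. A difference of at least 3 peaks in favour of gain was found at 644 genes (3.02%), and in favour of loss at 1192 genes (5.59%). These counts were 410 and 673 with peaks inside the gene span alone, and 1912 and 2838 within 50 kb. H3K27me3 regions covered at least 50% of the span of 50.9% of the first and of 7.38% of the second in control liver, compared to 31.2% of all genes. Among genes without H3K27me3 in control liver, 15.2% had more gained and 34.5% more lost peaks, and among fully covered genes 36.2% and 13.1%. At 353 genes all control peaks were lost and no peak was gained, whereas 645 genes had peaks in DKO liver alone.

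The 10 genes with the largest surplus of gained peaks by count included several long loci. Fgfr2, a fibroblast growth factor receptor, had 48 gained, 29 lost and 79 kept control peaks, but its annotated span, with flanks 3029 kb long, takes in other genes. Auts2, a nervous system gene, had 14 gained and 4 lost peaks over 59.4% H3K27me3 coverage, and Zbtb7c, a zinc finger factor, had 14 and 4. At Prex1, 9 peaks were gained and none was lost, with 94.3% coverage in control liver. H3K27ac peaks there numbered 2 in control and 13 in DKO liver, beside the longer DKO list of that mark. Gmds, an enzyme of fucose synthesis, likewise had 9 gained and no lost peaks. Msra, a methionine sulfoxide reductase, had 10 gained peaks and 1 lost, with no H3K27me3 in control liver. Plcb4, a phospholipase, had 11 gained and 2 lost, Synj2, a lipid phosphatase, 11 and 3, and Cox10, a cytochrome oxidase assembly factor, 8 and 0.

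Relative to locus length, 4 of the 5 leading genes were homeobox genes. Gsx2 went from 2 to 8 peaks with 6 gained and none lost, Lbx1 from 0 to 5, Six5 from 1 to 6, and Emx2 from 1 to 5 with 1 lost. Gsx2, Lbx1 and Emx2 were 100% covered by H3K27me3 in both groups, and Gsx2 and Lbx1 had no H3K27ac peak in either. Mmp14, a membrane metalloproteinase, had 3 control peaks, of which 1 was lost, and 5 gained peaks. H3K27me3 covered 50.7% of Mmp14 in control and 100% in DKO liver.

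Of the 10 leading genes with a surplus of lost peaks, 7 had H3K27me3 over less than 1% of their span in control liver. Absence of the mark is common, at 11920 of all 21326 genes, so that this count is no trait of these 10. Zbtb20, a transcriptional repressor that is abundant in liver, had 51 control peaks, of which 26 were lost, and 12 gained peaks. Arhgap26, a GTPase-activating protein, had 32 lost and 18 gained peaks. Nrp1 kept 5 of 18 control peaks and gained 2, Rhobtb1 kept 7 of 21 and gained 4, and Kynu kept 1 of 10 and gained none. Ext1, a heparan sulfate polymerase, lost 14 of 42 and gained 3. Ptprk, a receptor phosphatase, lost 17 of 29 and gained 7. Prr16, Erc2 and Astn2 had 11, 14 and 11 lost peaks and 1, 4 and 1 gained. Despite these losses, H3K27ac peaks at Zbtb20 numbered 30 in control and 55 in DKO liver, and at Nrp1 6 and 13, beside the longer DKO list of that mark over all autosomes.

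Per length, lost peaks were densest at small genes. Tsen54, a tRNA splicing factor, lost all 7 control peaks and gained 1, although with peaks inside the gene span alone it had 1 more gained than lost. Tspan31, a tetraspanin, and Noxo1, a regulator of NADPH oxidase, had 5 lost and no gained peaks each. Both had no H3K27me3 region in control and 100% coverage in DKO liver, which does not give the strength of the mark or the cells that carried it. Cdk4, the cyclin-dependent kinase next to Tspan31, shared these lost peaks and kept 1 of 6. Gm17350 and 1700013N18Rik, of unknown function, had 6 and 5 lost peaks and 1 and 0 gained.

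Genes that define the hepatocyte had more lost than gained peaks. Within 10 kb of the 44 genes of hepatocyte secretion and metabolism, 80 control peaks were lost (49.7%) and 28 peaks were gained. Gained peaks were thus 25.9% of changed peaks (18.6% to 34.9%), against 47.6% over all autosomes and 39.1% outside the H3K27me3 regions of both lists. More lost than gained peaks were found at 28 of these genes (63.6%, against 28.7% of all genes) and the opposite at 7 (15.9%, against 24.3%). Among all genes without H3K27me3 in control liver these shares were 34.5% and 15.2%. Inside the gene span alone these counts were 16 and 4, to which the shares of all genes, taken within 10 kb, do not apply. No control male H3K4me1 peak was kept, and none was gained, at Slc10a1 (5 peaks lost), Slco1b2 (3), Apoa1 (2) and Tat (1). Female liver did not show this loss. Control and DKO female peaks numbered 0 and 2 at Slc10a1, 0 and 1 at Slco1b2, 1 and 1 at Apoa1, and 1 and 3 at Tat. Slco1b2 is an organic anion transporter, Apoa1 the main protein of high density lipoprotein and Tat a tyrosine aminotransferase. Acaca and Fasn, which make fatty acids, lost 8 of 17 and 4 of 8 control peaks and gained 2 and 1, and Scd1 lost 5 of 8 and gained none. The bile acid enzymes Cyp8b1, Cyp7a1 and Cyp27a1 each had 3 control peaks, of which all were lost at Cyp8b1 and 1 was kept at Cyp7a1 and at Cyp27a1. Exceptions were Fgb, a fibrinogen chain, with 3 gained peaks and none lost, Fah, a tyrosine breakdown enzyme that had no control peak, with 2, and Ttr with 2 gained and 1 lost. H3K27ac peaks at these genes numbered 128 in control and 268 in DKO liver, and the median H3K27me3 coverage was 0% and 25.1%. The part of the unequal length of the H3K27ac lists in the first of these differences was not tested. The second rests on region calls in whole liver, which give neither the strength of H3K27me3 nor the cells that carried it.

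Hepatocyte transcription factors had 64 lost and 41 gained peaks, so that 39% of changed peaks were gained, with an interval (30.3% to 48.6%) that reached the 47.6% of all autosomes. Gained peaks were 39.1% of all changed peaks outside the H3K27me3 regions of both lists, and 40.5% in regions of DKO liver alone, close to the share of this list. Of these 26 genes, 15 had more lost peaks (57.7%, against 28.7% of all genes) and 8 more gained peaks (30.8%, against 24.3%). All 26 had a peak in DKO liver, whereas all genes include 4553 without a peak in either list, which lowers both of their shares. Thrb, the thyroid hormone receptor, had 14 lost and 5 gained peaks among 36 control peaks, Nr5a2, a regulator of bile acid synthesis, 7 and 2, Hnf4a 4 and 1, and Nr0b2, a repressor of the same pathway, 4 and 1 (inside the span of Nr0b2 alone, gained exceeded lost by 1). By contrast, Cebpa, Creb3l3 and Nr2f2 each had 2 gained and no lost peaks, although within 50 kb of Cebpa lost exceeded gained by 2. Foxa1 had no control peak and 1 in DKO liver. The median H3K27me3 coverage of these factors was 0% in control and 94.3% in DKO liver, as at Hnf4a (0% and 89.1%), Cebpa (0% and 100%) and Nr0b2 (0% and 100%). Coverage is the share of a gene inside called regions of pooled whole liver reads. It does not say how strong the mark was or which cells carried it, and cells other than hepatocytes kept Ezh2. A gain of the mark in hepatocytes was not tested.

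Genes of male-biased expression, which depend on the pulses of growth hormone in males, had 68 lost and 42 gained peaks (38.2% gained, 29.6% to 47.5%). Their median H3K27me3 coverage was 0% in both groups, and outside the regions of both lists 39.1% of all changed peaks were gained, close to this share. Of these 38 genes, 20 had more lost peaks (52.6%, against 28.7% of all genes). With peaks inside the gene span alone this count fell to 11. The share of all genes given here was taken within 10 kb and does not apply to that count. C6, a complement component, and Nudt7 each had 4 lost and no gained peaks, and Igfals, the carrier subunit of circulating insulin-like growth factor, 3 and 1. No H3K4me1 peak remained at Hsd3b5, Cyp4a12a, Mup20, Serpina1e and Ugt2b38. In the other direction Gstp1, a glutathione transferase, had 3 gained and no lost peaks, Cyp7b1 6 and 4, and Sult5a1 2 and 0 (within 50 kb, lost exceeded gained by 1 at both Cyp7b1 and Sult5a1). Members of the Mup, Cyp4a12, Cyp2c and Sult2a families have near-identical copies, to which reads of 50 nt cannot always be assigned, so that peak counts at these genes are uncertain.

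Genes of female-biased expression were near the background, with 53 lost and 43 gained peaks (44.8% gained, 35.2% to 54.7%, against 47.6%). Of 38 genes, 14 had more lost peaks (36.8%, against 28.7% of all genes) and 7 more gained peaks (18.4%, against 24.3%). Cux2, a female-specific repressor of male-biased genes, had 12 control peaks, 5 gained and 2 lost. Its H3K27ac peaks numbered 5 in control and 19 in DKO liver, beside the longer DKO list of that mark. Vldlr, a lipoprotein receptor, had 3 gained peaks and none lost, and Cyp39a1 2 and 0. Tox, a nuclear factor, had 8 lost and 4 gained, Ptgds, a prostaglandin synthase, 3 and 1, and Fmo2, a monooxygenase, 2 and 0. The 10 genes without a peak in either list included Cyp2b9, Cyp2c40, Cyp2c69 and Sult2a1.

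The growth hormone pathway itself had 62 lost and 43 gained peaks at 21 genes, and its gained share of changed peaks (41%, 32% to 50.5%) had an interval that held the 47.6% of all autosomes. That interval also held the 39.1% gained among all changed peaks outside the H3K27me3 regions of both lists. More lost than gained peaks were found at 13 of these genes (61.9%, against 28.7% of all genes) and the opposite at 6 (28.6%, against 24.3%). Each of the 21 genes had a peak, whereas all genes include 4553 without a peak in either list. The difference between 28.6% and 24.3% can therefore not be read as an excess of gain. Among receptors, Prlr had 12 lost and 5 gained peaks out of 34 control peaks, Ghr 4 and 5 out of 9, and Insr 4 and 7 out of 9. Of the signal transducers, Jak2 had 3 lost and no gained, Stat5b 4 and 3, Irs1 7 and 3, and Ptpn1, a phosphatase, 1 and 3. Igf1, the main target of growth hormone in liver, had 5 lost and 1 gained, and Socs3, a feedback inhibitor, 1 and 3.

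Developmental genes that PRC2 represses in most adult tissues went the other way. The 46 genes measured had 40 lost and 90 gained peaks, so that 69.2% of changed peaks were gained (60.8% to 76.5%). More gained than lost peaks were found at 30 genes (65.2%, against 24.3% of all genes) and the opposite at 8 (17.4%, against 28.7%). Inside the gene span alone the counts were 25 and 4, to which these shares of all genes, taken within 10 kb, do not apply. The median coverage by H3K27me3 was 100% in both groups. Over all sequence in H3K27me3 regions of both groups, gained peaks were 68.6% of changed peaks, close to the share of this list. Pax6, a regulator of eye and brain development, had 7 gained and 2 lost peaks, Six2, a kidney progenitor factor, 4 and 0, and Hoxb9, an axial patterning gene, 4 and 0. Hoxb1 and Neurog1 had no control peak and 2 gained peaks each. Foxd3 had 2 lost and no gained peaks, and Nkx2-5 1 and 0. The list had 11 H3K27ac peaks in control and 78 in DKO liver within 10 kb, beside 28862 and 55055 over all autosomes. The part of the unequal length of the H3K27ac lists in this difference was not tested.

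Genes of other cells and of fetal liver had gained shares of changed peaks above that of all autosomes, with intervals that reached it except for the first list. Stellate cell and fibrosis genes had 42 gained and 25 lost peaks (62.7%, interval 50.7% to 73.3%). Ngfr, a marker of stellate cells, had 4 gained and no lost peaks, Acta2, the actin of activated stellate cells, 3 and 0, and Mmp14 5 and 1, whereas Loxl2 had 4 lost and 2 gained, Tgfb1 2 and 0, and Vcl 2 and 1. Among markers of fibroblasts and stellate cells, Col3a1, Col6a1, Dcn and Lum had no peak in either list, whereas Col1a1 had 5 control peaks, Hand2 4, Pdgfra 3 and Lrat 1. The median H3K27me3 coverage of this list was 100% in both groups, and over all sequence in H3K27me3 regions of both groups gained peaks were 68.6% of changed peaks. Oncofetal and fetal liver genes had 27 gained and 18 lost peaks (60%, 45.5% to 73%). Dlk1, Igf2bp1 and Lin28b, genes of fetal liver, had 2 gained and no lost peaks each, and Sox9 and Hmga2 had 2 lost and none gained, and Spp1 1 and none. Endothelial genes had 32 gained and 24 lost peaks (57.1%, 44.1% to 69.2%), with 2 gained and none lost at Gata2, Tal1 and Stab2 and 2 lost and none gained at Robo4 and Lmo2. Macrophage and leukocyte genes had 13 gained and 11 lost (54.2%, 35.1% to 72.1%), with 2 gained and none lost at Csf1r and Runx3, and with 3 lost and 1 gained at Nkg7, 2 and 0 at Cd4 and 1 and 0 at Ikzf1. Peaks were called near 25 of 31 stellate and fibrosis genes in control and 27 in DKO liver, near 21 and 22 of 24 endothelial genes, and near 11 and 13 of 24 macrophage and leukocyte genes, beside 16128 and 16420 of all 21326 genes. The part that a different share of these cells had in the gained peaks was not tested.

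The interferon, cell cycle and PRC2 lists had gained shares of changed peaks whose intervals held the 47.6% of all autosomes. Interferon and inflammation genes had 27 gained and 29 lost peaks (48.2%, 35.7% to 61%), with 4 gained and none lost at Irf9, a subunit of the interferon response factor, and 3 lost and none gained at Nfkbia, the inhibitor of NF-kappa B. Cell cycle genes had 18 gained and 22 lost peaks (45%, 30.7% to 60.2%), and kept most of their control peaks, with 19.8% lost against 31.4% overall. Cdk4 had 5 lost and none gained, Cdkn2c 3 and 1, and Aurkb 2 and 0, whereas Cdk6 had 4 gained and 1 lost. Cdkn2a, a tumor suppressor under PRC2 control, had 2 gained and none lost. Among PRC2 and its cofactors, with 13 gained and 20 lost peaks (39.4%, 24.7% to 56.3%), Mtf2 had 4 lost and no gained peaks, Rbbp4 4 and 2, Jarid2 2 lost and 5 gained, and Suz12 1 gained. Ribosomal protein genes, which every cell expresses, had 17 gained and 33 lost peaks (34%, 22.4% to 47.8%), with 5 lost and none gained at Rpl11 and 3 at Rps6. The interval of the ribosomal genes just reached the 47.6% of all autosomes, and their median H3K27me3 coverage was 0% in both groups. It held the 39.1% gained among all changed peaks outside the H3K27me3 regions of both lists.

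**Figure D5:**
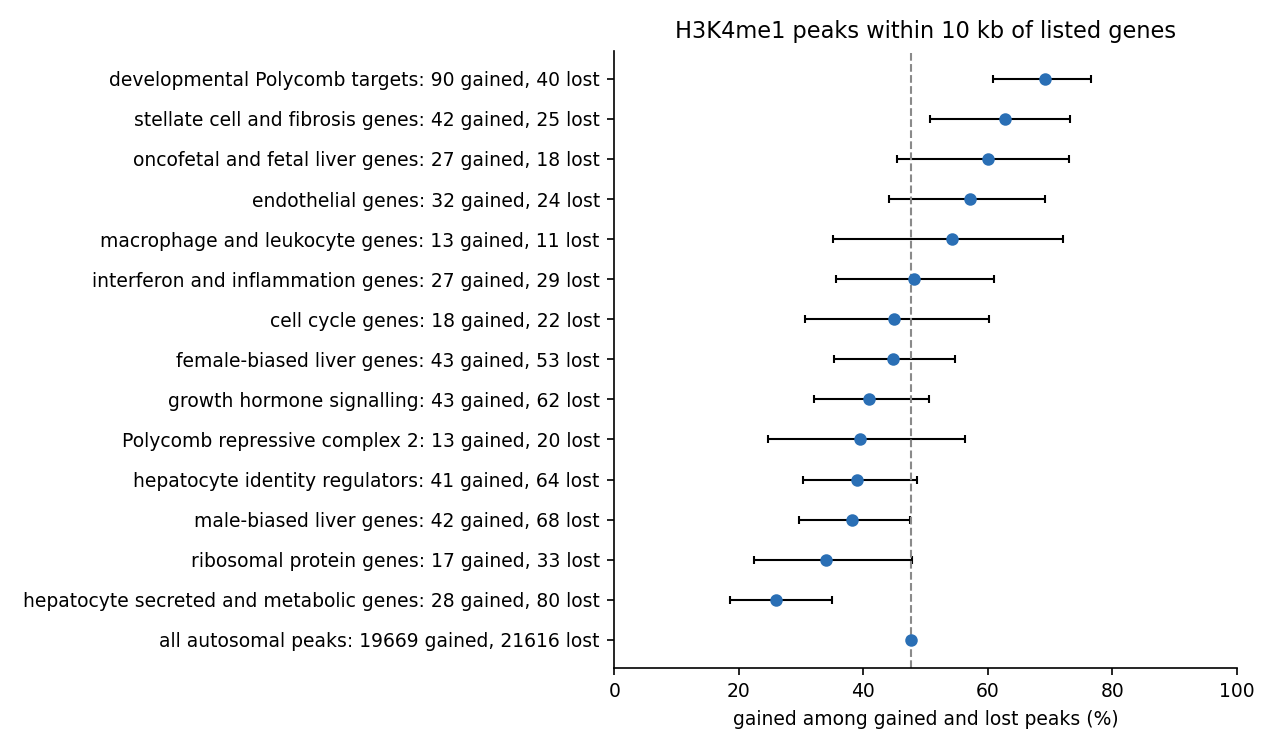
Gained peaks as a percent of gained and lost H3K4me1 peaks (horizontal axis) within 10 kb of the genes of each list (rows, with the peak counts), with Wilson 95% intervals. The dashed line marks all autosomal peaks (47.6%). Developmental Polycomb targets have the highest share (69.2%) and hepatocyte secreted and metabolic genes the lowest (25.9%). Over all changed peaks the share was 68.6% in H3K27me3 regions of both groups and 39.1% outside the regions of both lists.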

How the data were processed

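Livers of control and DKO (E1/E2-KO) male mice were profiled by ChIP-seq for H3K4me1, H3K27ac and H3K27me3, with 4 libraries per group and mark. The authors pooled the 50 nt paired-end reads of a group, mapped them to mm9 with Bowtie2 (version 2.3.2) and called H3K4me1 and H3K27ac peaks with MACS2 (version 2.1.1) and broad regions of H3K27me3 with SICER 1.1 at a window of 400 bp and a gap of 2400 bp. They deposited lists of chromosome, start, end and peak name, without scores or counts, so the depth is unknown. How far list lengths follow depth is therefore unknown too.

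The autosomal peaks were compared by overlap of 1 bp. Positions, genes and sequences came from the NCBIM37 genome, which is mm9, and protein-coding genes of GENCODE release M1 with models of the same symbol joined. A peak was placed by its midpoint, starts of transcripts first, then exons and introns. Gene counts took peaks within 10 kb of the span, so that a peak can count for several genes, while totals of a list count each peak once. Shares were given Wilson 95% intervals. Livers could not be left out of these lists, which were called on pooled reads, and the reads of single livers were not analysed here. The peaks, gene lists, motifs and alternatives were chosen with earlier results of these data known, and support nothing by themselves. The genes named are the 10 with the largest and smallest difference of gained and lost peaks, the 5 with the largest and smallest difference per 100 kb among loci with at least 5 changed peaks, and up to 3 of each list and direction (a gene was skipped when over 50% of its gained or lost peaks lay at a gene already taken), besides Ezh1 and Ezh2. Some genes that the rule takes are not reported here. Other genes in the text, the widest peaks and the longest runs were chosen after their values were seen. Synonyms matched 2 listed genes (Emr1 and Sfpi1), and 9 had no autosomal protein-coding model. The overlap step, tested on simulated data, recovered 3000 of 3000 removed and 2000 of 2000 added peaks. Python 3.11.15, NumPy 2.4.6, SciPy 1.17.1, pandas 2.3.3, matplotlib 3.10.9 and samtools 1.23.1 were used.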

Additional observations from a re-analysis of the deposited data

How the results depend on the processing

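No paired analysis was done and no liver was left out, because the lists used here were called on the pooled reads of a group. The reads of single livers were not analysed. Under 22 comparisons of a lost with a gained share, the order of the shares was kept in 20. It turned for the shares of peaks lost and gained when peaks within 1 kb were merged first (26.96% lost, 27.6% gained) and among the widest 50% of each list (13.8% and 14.4%). With at least 50% of a peak covered as the rule for kept, 41.7% of control peaks were lost and 39.4% of DKO peaks gained, and over all chromosomes 31.8% were lost.

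Shares of lost and gained peaks in control H3K27me3 regions were 21.5% and 42.1% under the 50% rule, 21.8% and 45.9% after merging and 18.3% and 56% among the widest peaks. Shares with H3K27ac in DKO liver were 36.3% and 25.7%, 27.6% and 18.4%, and 43.7% and 25.1% under these settings, and 19% and 10.03% with equal numbers of the widest H3K27ac peaks. Shares in the control female list were 39.2% and 32%, 29.5% and 21.7%, and 50.2% and 34%, and in the DKO female list 29.9% and 35.3%, 22.4% and 28.7%, and 35.2% and 48.2%. Within 2.5 kb of a start lay 23.8% of lost and 20.2% of gained peaks, and 13.4% of gained peaks lay within 1 kb under the 50% rule. Joined across 5 kb, 30.9% of lost and 19.1% of gained peaks had a neighbour. In the central 200 bp, 28% of lost and 48.1% of gained peaks had over 50% GC. Genes with a difference of at least 3 peaks numbered 410 for gain and 673 for loss inside the gene span, and 1912 and 2838 within 50 kb.

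Of 114 named genes, 7 reversed under an alternative. Gained minus lost was 1 at Tsen54 and Nr0b2 inside the span, and -1 at Sult5a1, Cyp7b1 and Rpl8, -2 at Cebpa and -3 at Rpl27 within 50 kb. The causes were not tested. Depth, which the lists do not give, limits every comparison of list lengths and of narrow peaks.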
